A study of Mus musculus with 6 samples.

Results

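Markers of scavenging and tissue-resident macrophages were followed in 6 mouse gliomas. The 10 genes, Mrc1, Msr1, Marco, Cd163, Stab1, Lyve1, Folr2, F13a1, Arg1 and Retnla, were taken by name, and all 10 were measured, each by a single probe set, among 19938 genes on the array. The tested tumours were 3 relapsed gliomas, numbered 1, 2 and 3, which had regrown after extinction of the mutant EGFR (epidermal growth factor receptor) that drove them, and they were set against 3 control gliomas, numbered 1, 2 and 4. Both groups came from mutant EGFR-driven mouse glioma cells implanted under the skin of the flank of Nu/Nu mice, a strain that lacks a thymus and mature T cells but keeps its macrophages. Tumours were taken at 2 cm3. Doxycycline, at 2 g/L in the water, was given to some of the mice, and the labels state neither the group that drank it, nor the age of the mice, nor the form and promoter of the mutant receptor.

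Macrophages take up debris, modified lipoproteins, haemoglobin complexes and glycoproteins through scavenger receptors, and many of those receptors mark the long-lived macrophages that reside along vessels and in connective tissue. In brain such cells sit at the borders and around vessels, apart from the microglia of the parenchyma. Interleukin-4 and interleukin-13 drive a further programme in mouse macrophages, known as alternative activation, of which Mrc1, Arg1 and Retnla are classic members. Values are log2 intensities, so that a difference of 1 is a doubling, and levels of different genes are not compared because each probe set has its own brightness.

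Of the 10 markers, 4 rose in relapsed tumours and none fell, namely Mrc1, F13a1, Msr1 and Stab1, by 2.17, 2.02, 1.90 and 1.22 on the log2 scale. A gene was called at a Benjamini-Hochberg adjusted p under 0.05 in limma, which 3.69% of all genes passed upward, 5.47% downward and 9.16% in either direction. The other 6 did not pass, but not alike: Retnla, Arg1 and Folr2 had differences of 1.75, 1.58 and 1.38 with wide intervals, and Lyve1, Cd163 and Marco had differences of 0.20, 0.10 and 0.04. The median difference of the 10 was 1.48, against -0.02 over all genes tested. In 5 of the 10 every relapsed array lay above every control array, as in 13% of all genes. The count of calls moved with single arrays, although Mrc1 was called in every one of these fits: without relapsed 1, 2 or 3 limma called 3, 1 or 2 of the markers, and without control 1, 2 or 4 it called 1, 2 or 2. Total RNA of a whole tumour was measured, so that more macrophages and more RNA per macrophage cannot be told apart.

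**Figure D1:**
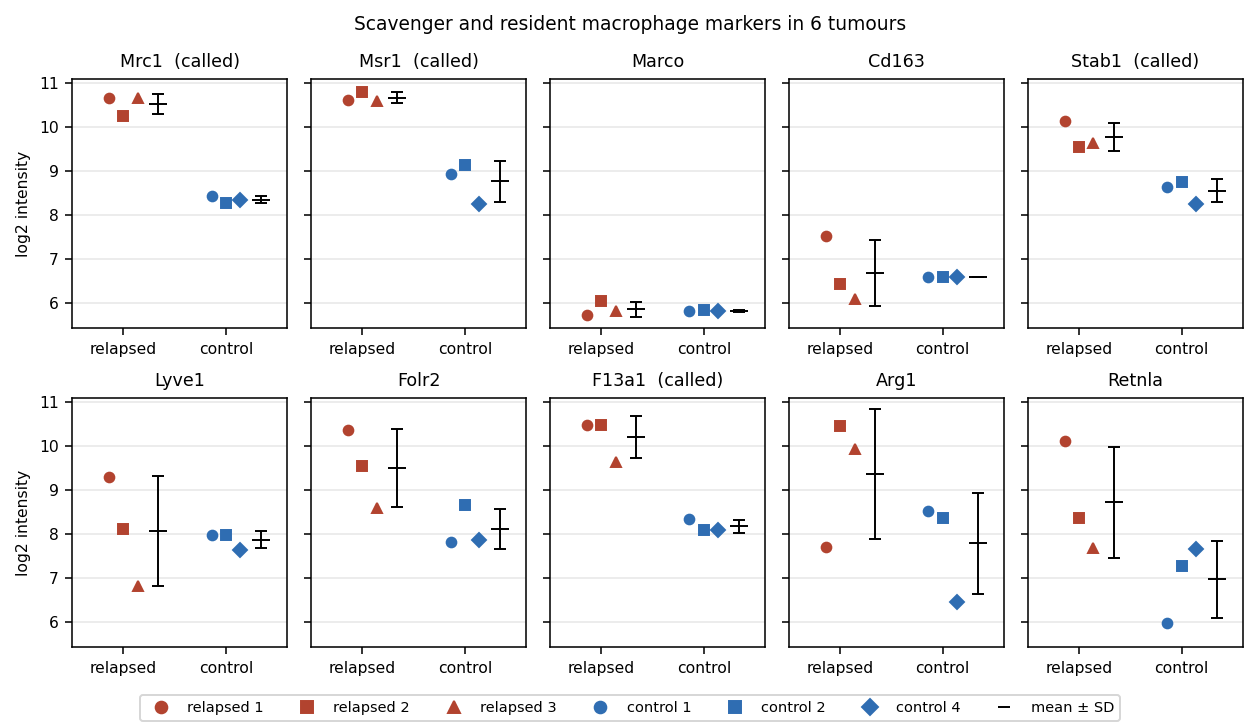
Log2 intensity of each marker in relapsed (red, left) and control (blue, right) tumours, 1 point per array, with the mean and SD of each group in black. Mrc1, Msr1, Stab1 and F13a1 keep a gap between the groups, the relapsed arrays spread widely for Lyve1, Arg1 and Retnla, and Marco stays near 5.8 in all 6 arrays.

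Some facts of the series bear on these values. Over genes, Pearson's r between arrays was 0.982 to 0.994 within a group and 0.962 to 0.979 across groups. Of all genes, 735 rose and 1091 fell, and with each array centred on its median 696 rose and 1687 fell. Glioma lineage genes had a mean level of 8.82 to 9.05 in relapsed and 10.28 to 11.00 in control tumours, and 5 of 9 fell. Olig2 fell most among them, and was at 7.69, 7.71 and 6.48 in relapsed 1, 2 and 3, against 10.54 to 11.42 in controls. Of this list Sox10 lay low in both groups, at 6.62 to 6.74 in relapsed and 6.74 to 6.95 in control tumours. Markers of other tissues stood apart in single arrays: all 11 adipocyte markers were highest in relapsed 1, all 11 keratinocyte markers in relapsed 3 and 10 of 12 skeletal muscle markers in control 2. The mean level of the adipocyte markers was 8.80 in relapsed 1 and 6.09 and 6.36 in the other relapsed tumours, beside 6.11 to 6.46 in controls. The keratinocyte markers averaged 6.13, 5.91 and 7.57 in relapsed 1, 2 and 3, beside 5.97 to 6.05 in controls. That of the skeletal muscle markers was 6.83 to 7.39 in relapsed tumours, against 6.82, 8.91 and 7.02 in control 1, 2 and 4.

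The promoters of the called genes are shown first, so that their windows can be read side by side. Windows run from 250 bases before to 50 after the annotated start, 5′ to 3′ on the gene's strand, from RefSeq on build GRCm38.p6, and 7 of the 10 markers had an entry. Those of Mrc1 (chr2:14229164-14229463, plus strand), Stab1 (chr14:31168592-31168891, minus strand) and F13a1 (chr13:37050195-37050494 and chr13:37049164-37049463, minus strand, 2 annotated starts) are printed, and Msr1 is named only. Capitals mark GAGGAA, the core of the site of PU.1, the lineage factor of macrophages, on either strand.
Mrc1: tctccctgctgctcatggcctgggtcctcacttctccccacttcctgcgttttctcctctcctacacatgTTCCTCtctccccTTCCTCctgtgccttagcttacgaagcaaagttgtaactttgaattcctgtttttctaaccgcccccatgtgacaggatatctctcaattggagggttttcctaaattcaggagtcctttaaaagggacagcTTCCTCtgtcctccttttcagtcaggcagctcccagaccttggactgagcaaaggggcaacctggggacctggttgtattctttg
Stab1: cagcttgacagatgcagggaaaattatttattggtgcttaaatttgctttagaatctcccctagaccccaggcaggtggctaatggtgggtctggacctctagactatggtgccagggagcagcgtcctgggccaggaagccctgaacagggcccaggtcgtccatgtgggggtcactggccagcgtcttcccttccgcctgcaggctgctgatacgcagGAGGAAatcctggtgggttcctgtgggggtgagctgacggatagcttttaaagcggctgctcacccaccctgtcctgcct
F13a1, upstream start: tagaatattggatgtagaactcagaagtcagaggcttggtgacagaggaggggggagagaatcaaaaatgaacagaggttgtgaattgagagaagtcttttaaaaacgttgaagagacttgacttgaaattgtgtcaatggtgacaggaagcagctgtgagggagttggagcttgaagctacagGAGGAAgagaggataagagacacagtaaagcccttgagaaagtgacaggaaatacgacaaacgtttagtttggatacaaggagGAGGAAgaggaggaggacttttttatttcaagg
F13a1, downstream start: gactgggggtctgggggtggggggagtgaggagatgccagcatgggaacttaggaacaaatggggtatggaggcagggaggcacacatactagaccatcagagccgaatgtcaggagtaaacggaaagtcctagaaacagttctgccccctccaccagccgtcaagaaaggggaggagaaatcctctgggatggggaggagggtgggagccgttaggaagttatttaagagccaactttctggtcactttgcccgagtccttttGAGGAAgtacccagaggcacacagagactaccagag
The core occurred 3 times in the Mrc1 window, all on the antisense strand, and its nearest copy began 35 bases upstream of the start. Stab1 held 1 copy, on the sense strand, 30 bases upstream. F13a1 held 2 copies at its upstream start and 1 at its downstream start. None of these overlapped another motif searched. Over the 9 windows of the 7 markers, 6 held the core, and so did 28.3% of all 32851 promoter windows. Of the markers that were not called, Marco and Retnla also held 1 copy each, and Cd163 and Folr2 held none. The other motifs were searched on both strands too. The IRF motif, a pair of GAAA boxes 2 bases apart, matched no window of a marker and 3.44% of all windows. TGANTCA, the AP-1 motif, matched 1 window, that of Folr2 at its downstream start, and 7.81% of all.

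The mannose receptor and the class A scavenger receptors divided into 2 genes that rose and 1, Marco, that stayed near the level of unlisted probe sets. Mrc1 encodes the mannose receptor CD206, which takes up mannosylated glycoproteins and collagen fragments. Its level was 10.65, 10.26 and 10.66 in relapsed 1, 2 and 3, against 8.44, 8.28 and 8.34 in control 1, 2 and 4. The groups lay 1.82 apart at their nearest arrays, and the arrays of each group stayed within 0.41 and 0.16 of each other. Mrc1 rose by 2.17 ± 0.13 (SE, 3 arrays per group), or 4.50-fold, with a limma adjusted p of 0.00581, and the difference ranked at position 40 from the top of 19938 genes. It alone among the markers kept its call in all 6 fits that left out an array, with differences of 2.10 to 2.30.

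Msr1 encodes the class A macrophage scavenger receptor, which binds acetylated and oxidised low-density lipoprotein. It stood at 10.60, 10.80 and 10.59 in relapsed 1, 2 and 3, against 8.93, 9.13 and 8.25 in control 1, 2 and 4. The relapsed tumours were nearly level, and control 4 was the lowest. Msr1 rose by 1.90 ± 0.24 (SE), or 3.72-fold, with a limma adjusted p of 0.0170. The call was lost without relapsed 2, relapsed 3 or control 1, where limma gave adjusted p of 0.0615, 0.0628 and 0.0557.

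Marco encodes a second collagen-like class A receptor, found on alveolar and splenic marginal zone macrophages. It was at 5.72, 6.05 and 5.81 in relapsed tumours, against 5.81, 5.84 and 5.81 in controls. All 6 values were near the 5.65 at which probe sets without a listed gene have their median, and relapsed 3 shared exactly the same deposited value with control 1 and control 4. The difference was 0.04, with a 95% interval of -0.20 to 0.27 and a limma adjusted p of 0.839. It was -0.02 with quantile normalization and -0.04 with median centring, so that it has no settled sign.

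The receptors that define resident macrophages of vessels and connective tissue divided further. Stab1, the stabilin-1 gene, encodes a multi-domain receptor for acetylated low-density lipoprotein and secreted matrix proteins, made by resident macrophages and by sinusoidal and lymphatic endothelium. It was at 10.13, 9.55 and 9.63 in relapsed 1, 2 and 3, against 8.64, 8.75 and 8.26 in control 1, 2 and 4. The groups were 0.80 apart at their nearest arrays. Stab1 rose by 1.22 ± 0.21 (SE), or 2.32-fold, with a limma adjusted p of 0.0289. The call was lost whichever array was left out, with differences of 1.04 to 1.33 and adjusted p of 0.0515 to 0.0877 in limma.

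Folr2 encodes folate receptor beta of tissue-resident macrophages. Its level was 10.37, 9.55 and 8.59 in relapsed 1, 2 and 3, against 7.83, 8.65 and 7.87 in control 1, 2 and 4. Relapsed 1 and relapsed 2 stood above every control, and relapsed 3 lay just under control 2. Skeletal muscle markers were high in control 2, and their part in the level was not tested. The difference was 1.38 ± 0.50 (SE), with a 95% interval of 0.15 to 2.62 and a limma adjusted p of 0.152. It was 0.95 without relapsed 1, 1.84 without relapsed 3 and 1.65 without control 2.

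Lyve1 encodes a hyaluronan receptor of lymphatic endothelium and of perivascular macrophages. It was at 9.31, 8.11 and 6.82 in relapsed 1, 2 and 3, against 7.99, 7.99 and 7.65 in control 1, 2 and 4. The relapsed tumours thus held both the highest and the lowest level of the 6, 2.49 apart, against a range of 0.34 in controls. The difference was 0.20, with a 95% interval of -1.35 to 1.75 and a limma adjusted p of 0.867. It was -0.41 without relapsed 1 and 0.83 without relapsed 3.

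Cd163 encodes the receptor that clears haemoglobin bound to haptoglobin. It was at 7.53, 6.43 and 6.10 in relapsed 1, 2 and 3, against 6.59 in each control. As for Lyve1, relapsed 1 was above all controls and relapsed 3 below them. The difference was 0.10, with a 95% interval of -0.83 to 1.02 and a limma adjusted p of 0.899, and it was -0.33 without relapsed 1. Controls 2 and 4 had exactly the same deposited value for Cd163, and controls 1 and 2 for Lyve1, so the spread of these controls rests on fewer distinct values. Such a shared value between at least 2 arrays occurred in 38.9% of all genes.

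F13a1 encodes the catalytic A subunit of coagulation factor XIII, a transglutaminase that crosslinks fibrin and is made by resident macrophages and monocytes as well as by platelets' precursors. Its level was 10.47, 10.48 and 9.65 in relapsed 1, 2 and 3, against 8.34, 8.09 and 8.10 in control 1, 2 and 4. Relapsed 3 was the lowest of its group and still 1.31 above the highest control. F13a1 rose by 2.02 ± 0.25 (SE), or 4.07-fold, with a limma adjusted p of 0.0164. The call was lost without relapsed 2 or without control 1, 2 or 4, where limma gave adjusted p of 0.0557, 0.0550, 0.0522 and 0.0652.

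The enzyme and the secreted factor of alternative activation varied most from tumour to tumour. Arg1 encodes the cytosolic arginase that splits arginine into ornithine and urea. It was at 7.71, 10.47 and 9.94 in relapsed 1, 2 and 3, against 8.54, 8.37 and 6.47 in control 1, 2 and 4. Relapsed 2 and relapsed 3 stood above all controls, and relapsed 1 lay among them. The difference was 1.58 ± 0.92 (SE), with a 95% interval of -0.71 to 3.87 and a limma adjusted p of 0.345. It was 2.41 without relapsed 1, 1.03 without relapsed 2 and 0.92 without control 4.

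Retnla encodes resistin-like alpha, a secreted protein induced by interleukin-4 in mouse macrophages and made in white adipose tissue as well. Its level was 10.12, 8.36 and 7.69 in relapsed 1, 2 and 3, against 5.99, 7.27 and 7.67 in control 1, 2 and 4. The groups did not overlap, but relapsed 3 was only 0.02 above control 4. The difference was 1.75 ± 0.75 (SE), with a 95% interval of -0.14 to 3.63 and a limma adjusted p of 0.217. It was 1.05 without relapsed 1, the tumour with high adipocyte markers, whose part in the level was not tested.

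The Retnla promoter is shown because interleukin-4 acts on this gene through STAT6 and C/EBP factors. The window lies at chr16:48842359-48842658, plus strand, build GRCm38.p6, and capitals mark, in this order, matches to GAGGAA (PU.1), to the STAT6 motif, which is TTC and GAA spaced by any 4 bases, and to TTGCNNAA (C/EBP).
Retnla: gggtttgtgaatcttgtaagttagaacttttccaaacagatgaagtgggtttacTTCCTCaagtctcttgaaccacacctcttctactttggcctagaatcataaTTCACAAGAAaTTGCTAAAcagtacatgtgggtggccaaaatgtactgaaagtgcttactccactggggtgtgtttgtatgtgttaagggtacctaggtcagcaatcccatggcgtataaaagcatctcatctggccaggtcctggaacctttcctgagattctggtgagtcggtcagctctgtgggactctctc
The match to the STAT6 motif began 145 bases upstream of the start and that to the C/EBP motif 134 bases upstream, with no overlap. Among the markers with an entry, Retnla was the only one with a match to either, and 6.95% and 10.8% of all windows held them. A match of letters does not show that a factor binds there.

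**Figure D2:**
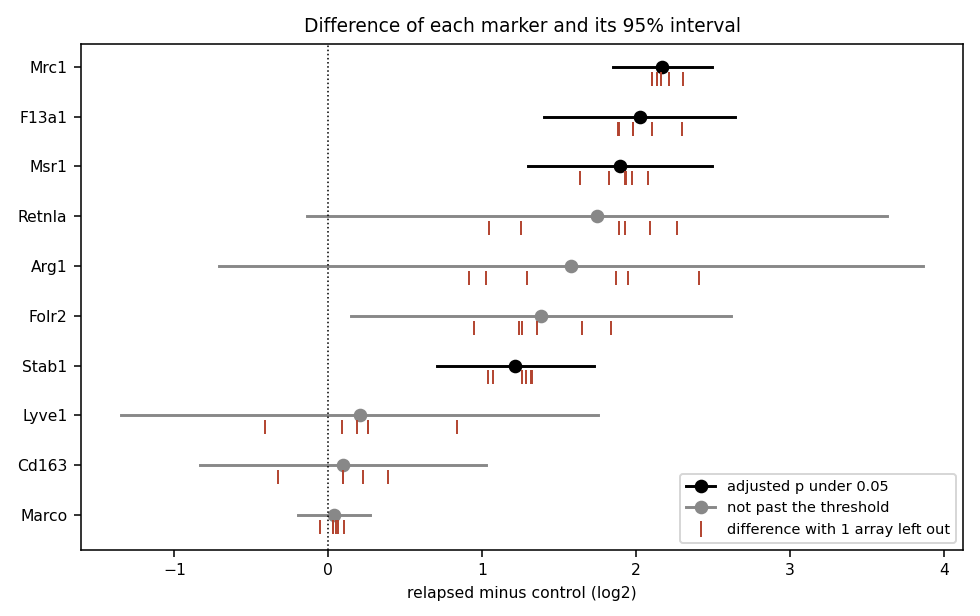
Relapsed minus control on the log2 scale for each marker, with its 95% interval from limma (black where the adjusted p was under 0.05, grey otherwise) and, as red ticks, the differences with each array left out in turn. Mrc1, F13a1, Msr1, Stab1 and Folr2 have intervals clear of 0, of which that of Folr2 belongs to a gene that did not pass after adjustment, and the ticks of Lyve1, Cd163 and Marco lie on both sides of it.

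The markers ordered the relapsed tumours differently. Relapsed 1 was above relapsed 2 and relapsed 2 above relapsed 3 for Cd163, Lyve1, Folr2 and Retnla. Against the mean of the controls, Lyve1 was 1.43 higher in relapsed 1, 0.23 higher in relapsed 2 and 1.05 lower in relapsed 3 (difference -1.05). Folr2 was 2.25, 1.43 and 0.47 higher in relapsed 1, 2 and 3, and Retnla 3.14, 1.38 and 0.71 higher. Arg1 had another order, with -0.09 in relapsed 1, 2.68 in relapsed 2 and 2.14 in relapsed 3. Mrc1 and Msr1 were even over the group, at 1.90 to 2.31 and 1.82 to 2.03 above the control mean. Other lists were highest in relapsed 1 too: macrophage and myeloid genes stood 1.56, 1.06 and 1.07 above the control mean in relapsed 1, 2 and 3, fibroblast markers 1.67, 0.95 and 0.85, and adipocyte markers 2.51, -0.20 and 0.08. Keratinocyte markers stood apart in relapsed 3, at 1.55 above the control mean. The part of these tissues in the order of the markers was not tested.

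**Figure D3:**
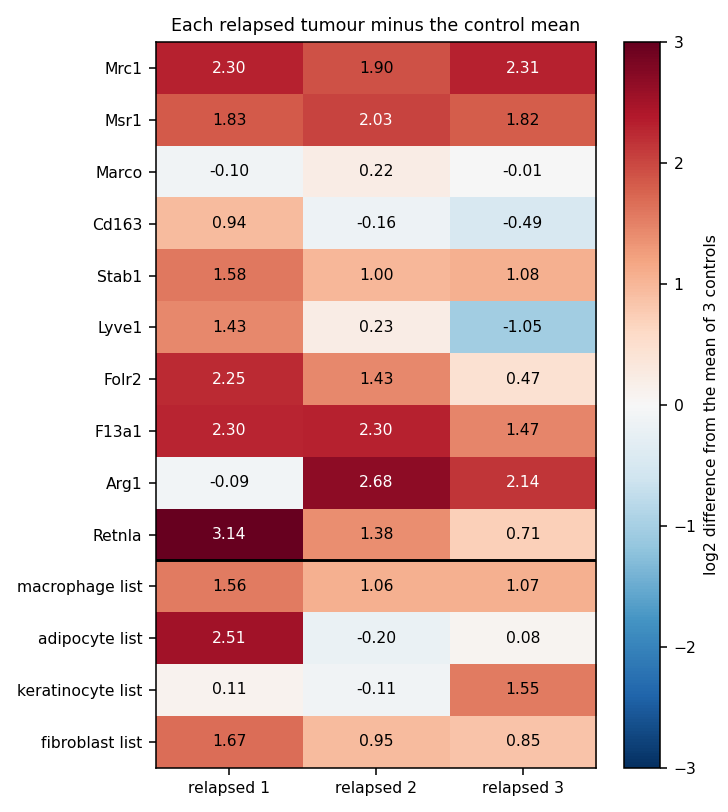
Log2 difference of each relapsed tumour from the mean of the 3 controls, for the 10 markers (above the line) and for 4 gene lists as mean scores (below it). Red is higher and blue lower. Lyve1 runs from 1.43 in relapsed 1 to -1.05 in relapsed 3, Arg1 is at -0.09 in relapsed 1 and 2.68 in relapsed 2, and the adipocyte list stands out in relapsed 1.

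Macrophage markers in general were higher in relapsed tumours, so the 10 genes were also set against them within each array. Of 18 macrophage and myeloid genes, 11 rose and none fell, or 1 to 6 with 1 array left out, with a median difference of 1.22, and the means of all 18 were higher in relapsed than in control tumours. The list's score, the mean of its genes each centred on its mean over the 6 arrays, was 0.45 to 0.94 in relapsed and -0.81 to -0.48 in control tumours. After this score was taken from each marker, centred in the same way, Mrc1 was 0.27, 0.37 and 0.77 in relapsed tumours, against -0.19, -0.60 and -0.62 in controls. F13a1 was 0.34, 0.84 and 0.01 in relapsed tumours, against -0.04, -0.54 and -0.61 in controls. These were the only 2 of the 10 whose relapsed arrays still lay above all controls, for F13a1 by a narrow margin. Their remaining differences were 0.94 ± 0.21 and 0.79 ± 0.30 (SE). The remaining difference of Msr1 was 0.67 ± 0.38 and that of Stab1 -0.01 ± 0.22, with overlapping groups. The subtraction takes the score's own difference, 1.23, from every marker. The size of each remainder is thus set by the marker's own difference and is no separate result. Cd163 and Marco came out lower in all relapsed arrays on this scale, which the subtraction fixes for genes whose own differences were 0.10 and 0.04, and nothing is read from it. With 3 arrays a group an exact permutation test cannot give a p below 0.1, so these differences are given as values.

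**Figure D4:**
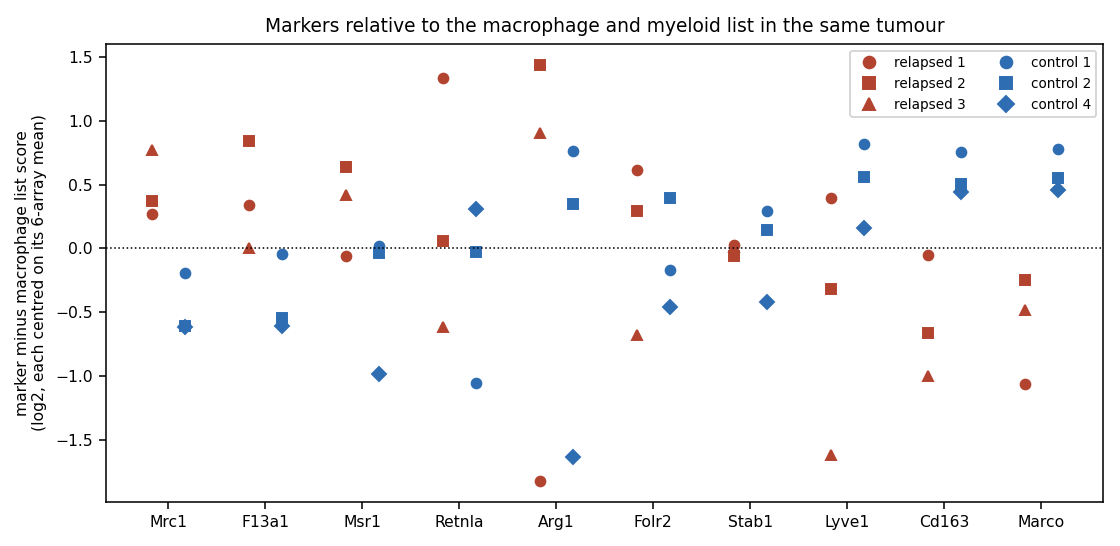
Each marker minus the score of 18 macrophage and myeloid genes in the same array, on the log2 scale, in relapsed (red, left) and control (blue, right) tumours. Relapsed arrays lie above all controls for Mrc1 and F13a1. They lie below them for Cd163 and Marco, as the subtraction of a higher score fixes, and mix with the controls for the other 6.

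Genes of neighbouring functions were read from the same fit, in which 3.69% of all genes rose and 5.47% fell. Most of their counts moved with single arrays. Of 21 other scavenger receptors, 3 rose and 1 fell, with a median difference of 0.45. With 1 array left out, 0 or 1 rose and 0 or 1 fell, and with all probe sets tested 1 rose and 1 fell. Colec12, a collectin scavenger receptor, rose by 1.68 ± 0.34 (SE), Clec7a, the beta-glucan receptor dectin-1, by 1.60 ± 0.25, and Cxcl16, a membrane chemokine that binds oxidised lipoprotein, by 1.00 ± 0.20. Megf10, an engulfment receptor of astrocytes, fell by 1.87 ± 0.29. Cd36, a fatty acid and lipoprotein receptor of macrophages, adipocytes and endothelium named here after its values were seen, was at 10.11, 9.18 and 7.60 in relapsed 1, 2 and 3, against 6.76, 6.50 and 7.43 in controls. Its difference of 2.06 did not pass, with a limma adjusted p of 0.123. Stab2, the closest relative of Stab1, was at 6.09 to 6.20 in relapsed and 6.20 to 6.33 in control tumours.

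Of 17 border-associated and perivascular macrophage genes, 8 rose and none fell, with a median difference of 1.21. The count of rises was 0 to 2 with 1 array left out, and 4 with all probe sets tested. Clec4n, the dectin-2 gene, rose by 2.03 ± 0.32 (SE), Ccl8, a monocyte-attracting chemokine, by 1.96 ± 0.41, Ms4a7, a membrane protein of macrophages, by 1.71 ± 0.27, and Pf4, platelet factor 4, by 1.68 ± 0.32. The means of all 17 were higher in the relapsed group. Cd209f, a lectin of perivascular macrophages in mouse brain named here after its values were seen, shared the order of Lyve1 and Folr2, with 9.46, 8.04 and 6.91 in relapsed 1, 2 and 3 against 7.77, 6.59 and 7.74 in control 1, 2 and 4, and did not pass (limma adjusted p = 0.551).

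Of 17 other genes of alternative activation, 1 rose and none fell, with a median difference of 0.38. With 1 array left out, 0 or 1 rose. Mgl2, a galactose-type lectin of macrophages and dendritic cells, rose by 1.19 ± 0.22 (SE). Of 12 genes of haemoglobin, haem and iron handling, 1 rose and none fell, with a median difference of 0.16. It was Slc40a1, the iron exporter ferroportin, at 1.33 ± 0.29 (SE) with a limma adjusted p of 0.0488, which the border-associated list holds too. Its level was 7.08, 5.97 and 6.36 in relapsed 1, 2 and 3. Controls 1, 2 and 4 were at 5.25, 5.12 and 5.06, under the 5.65 median of unlisted probe sets. With 1 array left out 0 or 1 gene of the haem list rose, and with all probe sets tested none did. Of 11 genes of arginine transport and metabolism, 1 rose and 1 fell, with a median of -0.09. The rise was counted with each array left out in turn, and the fall in each of these fits but the one without relapsed 3. The cationic amino acid transporters moved in opposite directions. Slc7a2, the transporter of macrophages and liver, rose by 1.18 ± 0.10 (SE), and Slc7a1, the widely used one, fell by 1.09 ± 0.11. Over all genes the median was -0.02.

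**Figure D5:**
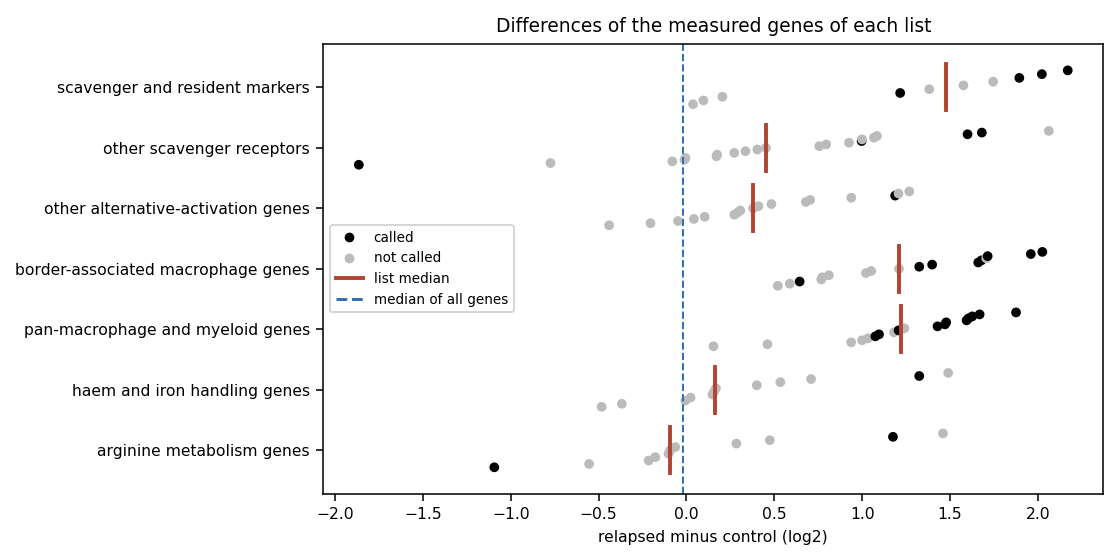
Relapsed minus control (log2) for each measured gene of the 10 markers and of 6 lists, black where called and grey where not, with the list median in red and the median of all genes as a dashed line. The border-associated and the macrophage lists lie wholly above 0, and the 10 markers hold 3 genes near 0 apart from the rest. Height within a row has no meaning.

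Markers of other cell types that make these transcripts were read beside them. Of 8 lymphatic endothelial markers, 1 rose, Pdpn, and 2 fell, Prox1 and Reln. Prox1, the lymphatic master regulator that neural progenitors also use, was at 7.13, 7.90 and 7.38 in relapsed tumours, against 9.17, 8.65 and 9.24 in controls. Relapsed 1 was the tumour with the highest Lyve1. There Prox1, Reln and Stab2 were at their lowest of the 6 arrays, and so was the list's mean level, at 7.41. Stab2 ran only from 6.09 to 6.33 over the 6 arrays. Flt4, Nrp2 and Tbx1 were neither at their lowest nor at their highest there, at 6.70, 9.60 and 6.67. Pdpn and Mmrn1 of the same list were at their highest in that tumour, at 11.18 and 4.41. Mmrn1 was also at 4.41 in relapsed 3, the tumour with the lowest Lyve1, and lay under 5.65, the median of unlisted probe sets, throughout. Of 12 blood endothelial markers, Robo4 fell and none rose. Of 6 platelet and megakaryocyte markers, 1 rose, Pf4, which macrophages also make, while Itga2b was at 7.03 to 7.12 in relapsed and 7.03 to 7.17 in control tumours. Of 7 monocyte genes, 2 rose, Ccr2 by 2.69 ± 0.41 (SE) and Fn1 by 0.34 ± 0.06. The means of all 7 were higher in relapsed tumours, by 0.04 to 2.69, with a median difference of 1.05. Of 8 microglia genes, 1 fell, Sall1, and none rose. The means of the other 7 microglia genes were higher in relapsed tumours, 5 of them with an unadjusted p under 0.05. The median difference of the list was 1.03. Slc2a5, counted among the 7, lay at 5.35 to 5.58 in all 6 arrays, under the 5.65 median of unlisted probe sets. The tumours grew under the skin, outside the brain, so these genes are not read as a count of microglia, and their source was not tested. Of 13 fibroblast markers, 8 rose. None of 11 neutrophil, 11 adipocyte, 11 keratinocyte and 12 skeletal muscle markers passed in limma, where 3, 1, 0 and 2 had an unadjusted p under 0.05. Of all 19938 genes, 5307 had such a p, and 2241 of these were higher in relapsed tumours. The part of these cells in the levels of the 10 markers was not tested.

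The genes whose profiles over the 6 arrays were most like those of the called markers were found by the mean absolute difference between profiles, each centred on its own mean. For Mrc1 they were Cd84, a leukocyte adhesion receptor, and Medag, at 0.14 each. For F13a1 they were the chemokine genes Ccl6 and Ccl9, at 0.14 and 0.16, and for Msr1 the IgG receptor gene Fcgr3 and Rarres1, at 0.16 and 0.18. For Stab1 they were Ccn4, a matricellular protein gene, and Klhl30, at 0.07 and 0.10. That these 8 genes were higher in relapsed tumours, by 1.19 to 2.25, follows from their choice by likeness to called markers.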

How the data were processed

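The values deposited by the authors are log2 intensities, normalized between arrays, of which each array has 1 per probe set. The log2 scale was inferred from their range, 1.93 to 14.2. Per the submitters' processing notes the affy package was used. Its version and settings were not given in the sources used here. Of 35556 probe sets, 21789 had 1 gene symbol in the platform annotation, 1621 had several symbols and 12146 had no listed gene. The probe set with the highest mean stood for each of 19938 genes. Relapsed against control was fitted by lmFit and eBayes of limma 3.58.1 in R 4.3.3 with group as the only term, with 4 residual and 1.53 prior degrees of freedom. Two-sided p-values were adjusted over all genes after Benjamini and Hochberg. Alternatives were a filter on dim genes, quantile normalization, median centring, the mean of a gene's probe sets, all probe sets tested, eBayes with trend, the replicate number as a block and each array left out. The fit was tested on simulated data.

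The markers and lists were chosen with earlier results of these data known. Named were the 10 markers, up to 4 called genes of each neighbouring list by size, and the 2 nearest profiles of each called marker. The called genes of the macrophage and myeloid list were not named for that list. Others are said to be chosen after their values were seen, and markers of other cell types were named where they bear on a marker. Errors of a difference are SE from limma, except relative to the macrophage score, where they are SE without moderation. The labels number the tumours but do not say that they came from separate animals, so p-values measure only the spread between these samples. Each sample title carries its own M number, followed by R or L in controls only, and the labels do not say what these stand for. The number of arrays limits the precision.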

Additional observations from a re-analysis of the deposited data

How the results depend on the processing

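As reported, limma called 4 of the 10 markers, 1826 of all genes and 26 of the genes in the 6 neighbouring lists. The markers' count was 4 under the filter on dim genes, quantile normalization, median centring, the mean of a gene's probe sets, all probe sets tested and eBayes with trend. With all probe sets tested, 17 genes of the neighbouring lists were called. Leaving out 1 array gave 1 to 3 markers, 264 to 975 genes and 4 to 11 list genes, with fewer samples in each fit. With the replicate number as a block limma called 0 markers, 0 genes and 0 list genes, where 4 markers, 2199 genes and 37 list genes had an unadjusted p under 0.05. That fit compares the 2 pairs sharing a number only, with control 4 and relapsed 3 given a level each. The labels do not say that a number pairs tumours, and the deviations of same-numbered arrays from their group means correlated at -0.34 for number 1 and -0.25 for number 2.

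With 1 array left out, the difference of Cd163 ran from -0.33 (without relapsed 1) to 0.39, that of Lyve1 from -0.41 (without relapsed 1) to 0.83, and that of Marco from -0.0549 (without relapsed 2) to 0.106. Marco was also reversed by quantile normalization, at -0.0228, and by median centring, at -0.0369. Their cause was not tested. Cd163 and Marco were not among the brighter genes, so the filter gave them no value.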
